A study of Monascus purpureus with 9 samples.

Results

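Among the 9869 rows of an expression table of Monascus purpureus, 91 genes were chosen that were at least 2-fold higher in both COMPASS knockouts than in the wild type (WT), reached at least 100 FPKM in each knockout and met further limits on the WT level, on the difference between the knockouts and on runs of raised genes. Monascus purpureus is a mould cultured for its azaphilone pigments. The table gives FPKM, the fragments of each transcript scaled by its length and by the number mapped in the library, in 9 RNA-seq libraries: 3 of a Swd3 knockout strain, 3 of a Set1 knockout strain and 3 of the WT strain. All groups were mycelium cultured in PDB medium for 2 days. The labels name neither separate cultures behind the libraries of a group nor more than one strain of a knockout, so the spread given below may be technical, and the lost subunit cannot be told apart from the history of a strain.

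COMPASS is the protein complex that methylates lysine on the tail of histone H3 at the promoters of transcribed genes. Set1 is its catalytic subunit, and Swd3 is a WD-repeat protein of the core that holds the complex together in yeast. In other filamentous fungi, loss of COMPASS subunits is known both to lower and to raise the expression of genes, among them clusters for secondary metabolites. No name, position or sequence comes with any row of the table. Of its rows, 0 matched the reference gene list, so each gene goes by its row identifier, no role is given for it, no sequence is shown, and the markers of mycelium or conidia and the transcripts of Set1 and Swd3 were not analysed here.

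The 91 genes were chosen by their group means, from the 8918 rows named gene_ with a number. Write W, S and D for the mean FPKM of WT, the Set1 knockout and the Swd3 knockout, s for log2((S + 1)/(W + 1)) and d for log2((D + 1)/(W + 1)). A gene was taken if s and d were at least 1, S and D at least 100, W at least 0.1 and under 1000, and d and s less than 0.585 apart. Genes in a run of 5 or more consecutive gene numbers with s and d of at least 1 were left out. Of the 8918 rows, 1184 had s and d of at least 1. Most of these, 1072, stayed under 100 FPKM in both knockouts, and 9 passed 100 FPKM in a single knockout. The limits on W left out 4 of the remaining 103, the limit on the knockout difference alone 3, the run alone 4 and both together 1. Since these means chose the genes, the levels and changes below are a description and no test of them is offered. All 91 passed the filter of at least 1 FPKM in at least 3 libraries that was set for the fit across all rows.

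Across the 91 genes the Swd3 knockout means ran from 105.7 to 2428 FPKM with a median of 246, the Set1 knockout means from 104.8 to 2660 FPKM with a median of 236, and the WT means from 1.53 to 542 FPKM with a median of 73.0. The median of d was 1.59 and that of s 1.61, with quartiles of 1.29 and 2.12 for d and of 1.32 and 2.18 for s. Over all 9153 rows tested, the median log2 change was -0.05 in the Swd3 and -0.06 in the Set1 knockout. Most changes were therefore near the limit of the rule: 57 genes had both s and d under 2, and 32 of these had both under 1.5. A set of 24 genes had both at 2 or more, and 9 of them at 3 or more. As ratios of mean FPKM to WT, the quartiles were 2.47 and 4.41 in the Swd3 knockout and 2.52 and 4.56 in the Set1 knockout.

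**Figure D1:**
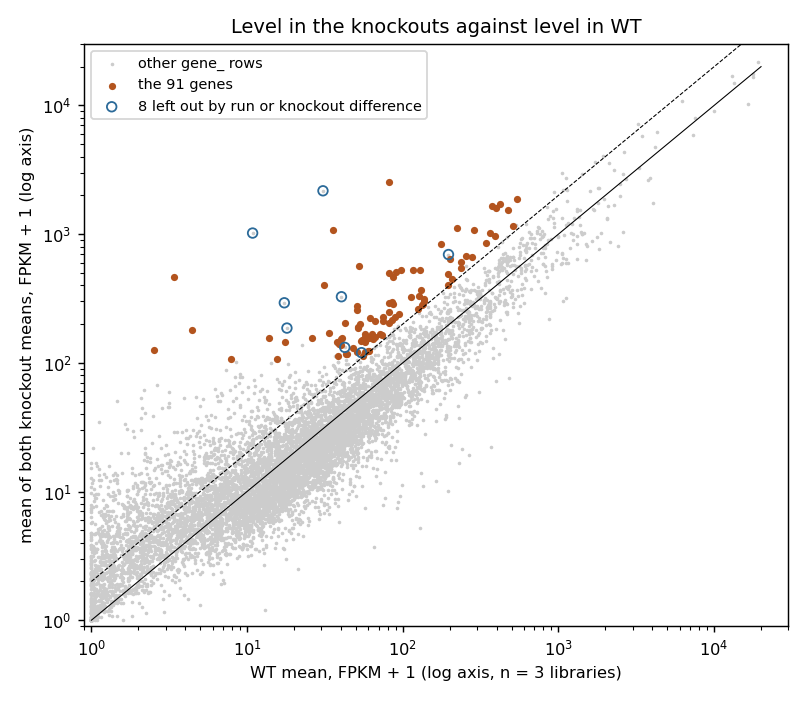
Each point is a gene_ row, with the WT mean on the x axis and the mean of both knockout means on the y axis, both as FPKM + 1 on log axes. The filled points are the 91 genes, the open circles the 8 genes left out by the run or by the knockout difference, the solid line marks equal levels and the dashed line a 2-fold higher level in the knockouts. The 91 genes span WT means of 1.53 to 542 FPKM and all lie above the dashed line.

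Every knockout library stood above every WT library for all 91 genes, as the rule makes likely; over all rows tested this held for 34.8%. For 78 of the 91 the lowest knockout library was at least 2 times the highest WT library, which the 2-fold limit on the means also makes likely. The share of all rows with such a gap was not computed, so nothing is read from this count. The smallest ratio of the lowest knockout library to the highest WT library was 1.59, for gene_9255, and the largest 153, for gene_1082. In the fit across all rows (limma, adjusted p under 0.05) 91 of 91 were higher in the Swd3 knockout, against 38.2% of all rows, and 91 of 91 in the Set1 knockout, against 37.8% of all rows. The rule used these contrasts, so nothing is read from these counts. Both comparisons also share the same 3 WT libraries.

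Together the 91 genes made up 5.56%, 5.47% and 5.36% of the summed FPKM in the Swd3 knockout libraries and 5.57%, 5.49% and 5.47% in the Set1 knockout libraries, against 1.54%, 1.51% and 1.54% in the WT libraries. The means were 5.47 ± 0.10% in the Swd3 knockout, 5.51 ± 0.0541% in the Set1 knockout and 1.53 ± 0.0191% in WT (SD, n = 3 each). The knockout libraries overlapped with each other in this share and all stood above the 3 WT libraries. The 10 of the 91 that were highest in a library, taken anew for each library, held 38.2% to 39.5% of the summed FPKM of the set in the Swd3 knockout libraries, 39.1% to 39.8% in the Set1 knockout libraries and 37.3% to 38.3% in the WT libraries. In single libraries, 90 or 91 of the genes were at 100 FPKM or more in each knockout, against 29 or 30 in WT. The rule largely sets these counts and the higher, similar shares of both knockouts. It required a mean of at least 100 FPKM and a 2-fold rise in each knockout, and limited their difference.

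**Figure D2:**
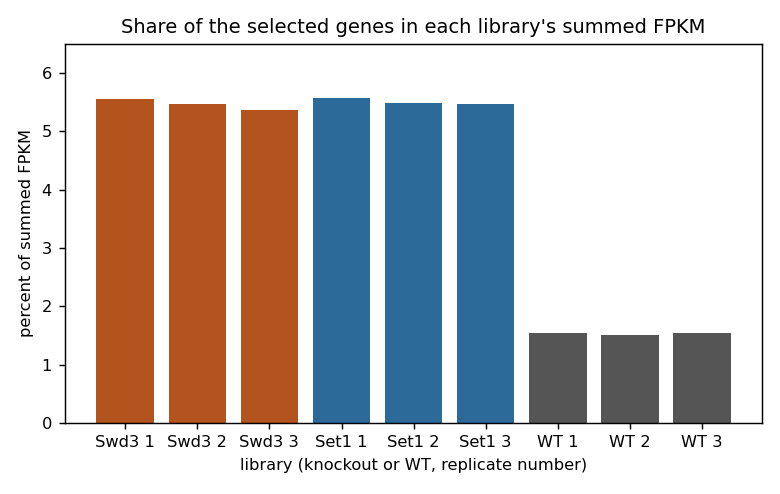
Bars give the percentage of each library's summed FPKM that the 91 genes hold, for the Swd3 knockout, Set1 knockout and WT libraries by replicate number. The 6 knockout libraries sit between 5.36% and 5.57%, and the 3 WT libraries between 1.51% and 1.54%.

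A group of 10 genes reached the top of the knockout profiles. They were among the 100 most abundant rows of both knockouts, and 0 of the 91 were among the 100 most abundant of WT. The upper limit on W and the required rise in both knockouts partly set these counts and those that follow. The 2 knockouts had 83 rows in common among their 100 most abundant, of which 15 were outside the 100 most abundant of WT, and 10 of those 15 were these genes. Their WT ranks ran from 188 to 2878. The highest was gene_6017, at rank 32 in the Swd3 and 27 in the Set1 knockout, against rank 1387 in WT. Gene_6017 stood at 2448, 2420.4 and 2415 FPKM in the Swd3 knockout libraries and at 2609, 2689 and 2680.4 FPKM in the Set1 knockout libraries, against 82.9, 84.3 and 74.2 FPKM in WT. Its libraries did not overlap between any groups, and its FPKM was 30.2-fold that of WT in the Swd3 and 33.1-fold in the Set1 knockout. For gene_3030 the Swd3 knockout libraries held 973, 992 and 1011 FPKM and the Set1 knockout libraries 1162, 1164 and 1162 FPKM, against 34.7, 35.1 and 33.8 FPKM in the WT libraries. Among the 10 this gene had the lowest WT rank, reaching 84 and 81 in the knockouts in the same order, against 2878 in WT, and its Set1 knockout libraries differed from each other by an SD of only 1.03 FPKM.

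The other 8 were already well expressed in WT and stood at changes of 1.03 to 2.46 on the log2 scale. Gene_2081 stood at 1898, 1854 and 1861 FPKM in the Swd3 knockout libraries and at 1821, 1932 and 1878 FPKM in the Set1 knockout libraries, against 541, 554 and 531 FPKM in WT, the highest WT level of the 91. For gene_858 the Swd3 knockout libraries held 1532, 1787 and 1723 FPKM and the Set1 knockout libraries 1747, 1803 and 1755 FPKM, against 417, 428 and 413 FPKM in the WT libraries. Both knockouts overlapped for these 2 genes, while WT stayed well below. The values of gene_7220 were 1743, 1524 and 1513 FPKM in the Swd3 knockout, 1751, 1638 and 1673 FPKM in the Set1 knockout and 366, 384 and 369.6 FPKM in WT. For gene_5371 the Swd3 knockout libraries held 1573, 1792 and 1737 FPKM and the Set1 knockout libraries 1458, 1521 and 1469 FPKM, against 396, 408 and 385 FPKM in the WT libraries. Here the Swd3 knockout libraries all lay above the Set1 knockout libraries, by a factor of 1.15 between the means. The values of gene_2382 were 1436, 1502 and 1469.7 FPKM in the Swd3 knockout, 1518, 1647 and 1591 FPKM in the Set1 knockout and 469, 498 and 453 FPKM in WT. Gene_5937 stood at 1032, 1062 and 1019.6 FPKM in the Swd3 knockout libraries and at 1242, 1313 and 1279 FPKM in the Set1 knockout libraries, against 507, 526 and 494 FPKM in WT. With d at 1.03 and s at 1.33, gene_5937 was the least changed of the 10 in the Swd3 knockout. For gene_718 the Swd3 knockout libraries held 1032, 975 and 1049 FPKM and the Set1 knockout libraries 1262, 1141 and 1241 FPKM, against 215, 221 and 227 FPKM in the WT libraries, and gene_7694 averaged 907 ± 72.2 FPKM in the Swd3 knockout, 1140.1 ± 41.4 FPKM in the Set1 knockout and 361 ± 22.6 FPKM in WT (SD, n = 3). In gene_2382, gene_5937, gene_718 and gene_7694 the Swd3 knockout was the lower of the knockouts.

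**Figure D3:**
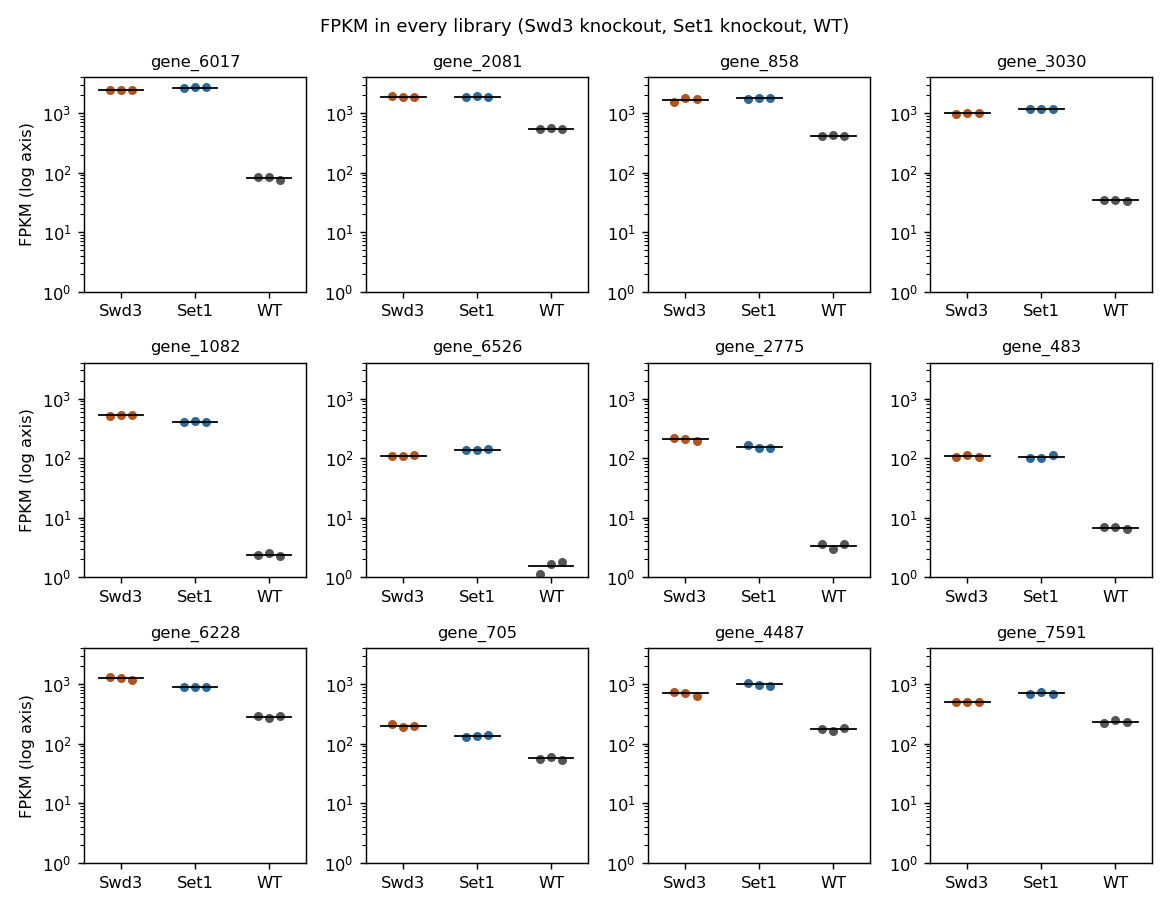
Each panel shows the FPKM of 1 gene in every library on a log axis, with 3 points per group and a bar at the group mean, for the Swd3 knockout, the Set1 knockout and WT. The upper row holds abundant genes, the middle row the genes with the lowest WT means, and the lower row genes that differ between the knockouts. In every panel the 3 WT libraries lie below the 6 knockout libraries.

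At the other end, 7 of the 91 genes had a WT mean under 20 FPKM, of which 4 were under 10 FPKM. A gene this low in WT needs a large change to reach 100 FPKM, so their large d and s follow in part from the rule. By the ratio to WT, gene_1082 changed most. Gene_1082 stood at 519.8, 527 and 531 FPKM in the Swd3 knockout libraries and at 398, 421 and 399 FPKM in the Set1 knockout libraries, against 2.35, 2.59 and 2.25 FPKM in WT. The ratio of means was 219.5 in the Swd3 and 169 in the Set1 knockout, and its rank was 204 and 284 in the same order, against 7658 in WT. The values of gene_6526 were 109, 108 and 112 FPKM in the Swd3 knockout, 138, 137 and 142 FPKM in the Set1 knockout and 1.13, 1.67 and 1.8 FPKM in WT. It had the lowest WT mean of the set, and its WT libraries spread widely, with a coefficient of variation (CV, the SD over the mean) of 23.2%, against 1.86% in the Swd3 and 1.81% in the Set1 knockout. On the log2(FPKM + 1) scale its changes were 5.45 in the Swd3 and 5.79 in the Set1 knockout. For gene_2775 the Swd3 knockout libraries held 214, 209 and 194 FPKM and the Set1 knockout libraries 164, 147 and 151 FPKM, against 3.59, 2.99 and 3.64 FPKM in the WT libraries. Both knockouts were apart in these 3 genes, with gene_1082 and gene_2775 higher and gene_6526 lower in the Swd3 knockout. The values of gene_483 were 105, 112 and 105 FPKM in the Swd3 knockout, 99.6, 102 and 113 FPKM in the Set1 knockout and 7.03, 6.98 and 6.5 FPKM in WT, with changes of 3.79 in the Swd3 and 3.76 in the Set1 knockout and overlapping knockouts. It was also the gene nearest to the lower limit on level.

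The remaining 3 genes under 20 FPKM in WT, named here after their values were seen, were gene_6299, gene_6421 and gene_7705. Gene_6299 averaged 135 ± 10.6 FPKM in the Swd3 knockout, 177 ± 9.31 FPKM in the Set1 knockout and 12.8 ± 0.561 FPKM in WT, gene_6421 averaged 162 ± 8.85 FPKM in the Swd3 knockout, 125 ± 5.51 FPKM in the Set1 knockout and 16.6 ± 0.528 FPKM in WT, and gene_7705 averaged 106 ± 5.31 FPKM in the Swd3 knockout, 106 ± 2.83 FPKM in the Set1 knockout and 14.6 ± 2.1 FPKM in WT (SD, n = 3 each). Their changes in the Swd3 knockout were 3.3, 3.2 and 2.78 in this order, and 3.69, 2.84 and 2.78 in the Set1 knockout. Of the 9 genes with both changes at 3 or more, 4 have been given with a WT mean under 10 FPKM, and gene_6299, gene_6017 and gene_3030 are above. The last 2, gene_9078 and gene_794, averaged 397 ± 42.8 FPKM in the Swd3 knockout, 403 ± 11.5 FPKM in the Set1 knockout and 30.2 ± 0.589 FPKM in WT, and 564 ± 16.7 FPKM in the Swd3 knockout, 558 ± 11.7 FPKM in the Set1 knockout and 51.1 ± 2.59 FPKM in WT (SD, n = 3 each).

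The middle and largest class, with 54 genes, had WT means of 20 to under 100 FPKM. Its median was 180 FPKM in the Swd3 knockout, 169 FPKM in the Set1 knockout and 56.6 FPKM in WT, with median changes of 1.6 for d and 1.61 for s. The 30 genes at 100 FPKM or more in WT had medians of 585 FPKM in the Swd3 knockout, 674 FPKM in the Set1 knockout and 213 FPKM in WT, with median changes of 1.36 and 1.51 in the same order. Seen from the knockouts, 130 of the gene_ rows with at least 100 FPKM in both had under 100 FPKM in WT, and 61 of the 130 were among the 91 genes. Across the 91, WT and knockout means kept much of their order. Spearman's rho was 0.75 between W and D and 0.77 between W and S, a description over 91 genes that share the same libraries and limits.

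The smallest changes belonged to gene_8247, gene_7887, gene_9443 and gene_8635. Gene_8247 stood at 119.9, 109 and 100.3 FPKM in the Swd3 knockout libraries and at 126, 108 and 111 FPKM in the Set1 knockout libraries, against 56.2, 48.6 and 57.6 FPKM in WT. For gene_7887 the Swd3 knockout libraries held 129, 124 and 115 FPKM and the Set1 knockout libraries 127, 124 and 119 FPKM, against 58.9, 60.2 and 58.2 FPKM in the WT libraries. The values of gene_9443 were 126, 115 and 123 FPKM in the Swd3 knockout, 128, 128 and 121 FPKM in the Set1 knockout and 60.8, 58.4 and 58.8 FPKM in WT. In these 3 genes both knockouts overlapped, and every knockout library was above every WT library. Gene_8635 averaged 406 ± 9.74 FPKM in the Swd3 knockout, 404 ± 14.1 FPKM in the Set1 knockout and 194 ± 10.6 FPKM in WT (SD, n = 3 each), so that its knockout means were 2.09 times the WT mean in both. Just outside the limit on change, gene_3544 had means of 117 FPKM in the Swd3 knockout, 119 FPKM in the Set1 knockout and 58.3 FPKM in WT, with d at 0.99. Just inside, gene_6142 had means of 273, 251 and 125 FPKM in the same order, with s at 1.00.

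For the other limits the nearest genes were as follows. Gene_9399 fell outside on level, with 98.2 FPKM in the Swd3 knockout and 125 FPKM in the Set1 knockout, against 35.8 FPKM in WT. Gene_3073, with 1049 FPKM in WT, was outside the upper limit on W and stood at 2994 FPKM in the Swd3 knockout and 2971 FPKM in the Set1 knockout, whereas gene_2081 was the nearest inside at 542 FPKM. The other 3 genes left out by W were gene_8533, gene_9218 and gene_9254, with WT means of 1417, 1110 and 3234 FPKM. Outside the lower limit on W there were 0 genes, and gene_6526 was the nearest inside. On the knockout difference, gene_705 was just inside with d minus s at 0.58, and gene_1891 just outside at 0.66, with 161 FPKM in the Swd3 knockout and 101 FPKM in the Set1 knockout, against 41.4 FPKM in WT. Among genes in runs, gene_5468 was inside in a run of 4 and gene_8939 outside in a run of 5. Outside the gene_ rows, which the rule required, 1 NewGene_ row met the limits on level and change: NewGene_659, at 248 FPKM in the Swd3 knockout and 249 FPKM in the Set1 knockout, against 44.9 FPKM in WT.

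The knockouts were set beside each other next, within the difference of 0.585 that the rule allows. The median of d minus s was -0.03 (range -0.50 to 0.58), and 36 genes were within 0.1 of equal. Over all rows tested the median log2 change of the Swd3 against the Set1 knockout was 0.02. The level was higher in the Swd3 knockout for 36 of the 91 genes and lower for 55, a split that moved with the processing: it was 46 and 45 with every library set to a common total or with quantile normalization, 33 and 58 with scaling by the median of ratios, and 45 and 46 without Swd3 replicate 3. The 3 Swd3 and 3 Set1 knockout libraries did not overlap for 53 of the 91 genes, with 22 higher and 31 lower in the Swd3 knockout, while 28.3% of all rows tested did not overlap. In the direct comparison across all rows (limma, adjusted p under 0.05) 17 of the 91 were higher in the Swd3 knockout, against 6.66% of all rows, and 21 were lower, against 6.15%. The rule used this difference too, and nothing is read from these shares. Over the 91 genes the calls numbered 15 higher and 15 lower without any one of Swd3 replicate 2, Set1 replicate 2 and Set1 replicate 3, 20 higher and 16 lower with a common total, and 28 higher and 15 lower under quantile normalization. Over all rows tested, the calls without these replicates numbered 362 higher and 371 lower, 406 and 421, and 386 and 372, in this order. They numbered 782 and 437 with a common total, and 748 and 771 under quantile normalization. The calls of all rows thus moved with the setting too, and nothing is read from these counts.

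The genes furthest towards the Swd3 knockout were gene_705, gene_6228 and gene_4581. Gene_705 stood at 214, 192 and 196 FPKM in the Swd3 knockout libraries and at 129, 135 and 139 FPKM in the Set1 knockout libraries, against 56.5, 59.7 and 53.7 FPKM in WT. For gene_6228 the Swd3 knockout libraries held 1298, 1249.9 and 1189.5 FPKM and the Set1 knockout libraries 902, 885 and 894 FPKM, against 293, 269 and 290.3 FPKM in the WT libraries. The values of gene_4581 were 254, 260.4 and 258 FPKM in the Swd3 knockout, 189.9, 185 and 189.6 FPKM in the Set1 knockout and 61.3, 63.2 and 58.5 FPKM in WT. In all 3 the groups formed separate steps, highest in the Swd3 knockout and lowest in WT, and the Swd3 mean was 1.5, 1.39 and 1.37 times the Set1 mean. The genes furthest the other way were gene_4487, gene_7591 and gene_509. Gene_4487 stood at 745, 717 and 633 FPKM in the Swd3 knockout libraries and at 1047, 974 and 944 FPKM in the Set1 knockout libraries, against 178, 165 and 184 FPKM in WT. For gene_7591 the Swd3 knockout libraries held 503, 495 and 507 FPKM and the Set1 knockout libraries 687, 739.8 and 694 FPKM, against 221, 246 and 234 FPKM in the WT libraries. The values of gene_509 were 130.5, 121 and 111 FPKM in the Swd3 knockout, 169.8, 168 and 163 FPKM in the Set1 knockout and 59.9, 52.6 and 57.2 FPKM in WT. These were again 3 separate steps, with the Set1 knockout highest, and the Swd3 mean was 0.706, 0.71 and 0.723 times the Set1 mean. The genes left out by the knockout difference lay beyond these, among them gene_7122, at 4047 FPKM in the Swd3 knockout and 291 FPKM in the Set1 knockout, against 29.7 FPKM in WT, and gene_6945, at 177 FPKM in the Swd3 knockout and 406 FPKM in the Set1 knockout, against 16.3 FPKM in WT.

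**Figure D4:**
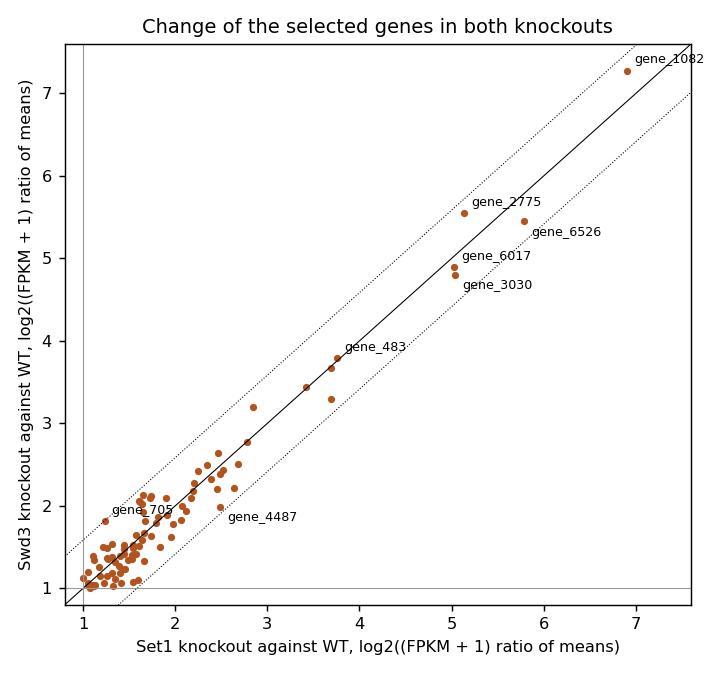
Each point is 1 of the 91 genes, with the log2 change in the Set1 knockout on the x axis and in the Swd3 knockout on the y axis, as ratios of mean FPKM + 1 to WT. The solid line marks equal changes, the dotted lines the limit of 0.585 on their difference and the grey lines the limit of 1 on each. The points crowd between 1 and 2.5, and gene_1082 stands furthest out at 6.90 and 7.28.

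The spread between replicates, which the rule did not use, was small for most of the genes. The median CV was 5.02% in the Swd3 knockout, 3.3% in the Set1 knockout and 4.23% in WT (3 libraries each). Other rows at 100 FPKM or more in the same group had medians of 4.47%, 3.41% and 3.63%, and other rows within the WT quartiles of the 91 genes had a median of 4.12% in WT. A CV over 10% in at least 1 group was found for 13 of the 91 genes, or 14.3%, beside 11.8% of other rows with a knockout mean of at least 100 FPKM. The widest after gene_6526 was gene_9255. Gene_9255 stood at 369.6, 288 and 240.3 FPKM in the Swd3 knockout libraries and at 358, 283 and 283 FPKM in the Set1 knockout libraries, against 147, 106 and 151 FPKM in WT. Its CV was 21.8% in the Swd3 knockout, 14% in the Set1 knockout and 18.4% in WT, and the lowest knockout library, at 240.3 FPKM, was still above the highest WT library, at 151 FPKM. For gene_8315 the Swd3 knockout libraries held 164, 143 and 122 FPKM and the Set1 knockout libraries 175, 145 and 147 FPKM, against 57.3, 45.6 and 57.5 FPKM in the WT libraries.

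In both of these genes replicate 1 was the highest library of each knockout and replicate 2 the lowest of WT. This order, looked for after the values were seen, was found in 9 of the 13 genes with a CV over 10%, and in 29 of the 91 genes, or 31.9%. The same order was found in 25.8% of the other rows tested and in 22.5% of those with a knockout mean of at least 100 FPKM. Among rows with a CV over 10% these shares were 28.8% and 32.1%. Over the 91 genes, the median log2 deviation from the group mean was 0.03 in Swd3 replicate 1 and -0.03 in Swd3 replicate 3, against 0.02 and -0.02 for other rows with a knockout mean of at least 100 FPKM. In Swd3 replicate 1, 60 of the 91 genes were above their group mean, and in Swd3 replicate 3, 24. In the Set1 knockout and WT these medians lay between -0.01 and 0.01. The part of this order in the differences between knockouts was not tested.

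The gene numbers show how the 91 genes lie among the other identifiers. The table does not say whether numbers follow the order of genes on a chromosome. The 91 genes were spread over the range of numbers from 2 to 10020, with between 4 and 15 in each block of 1000 numbers up to 10000. A total of 61 stood alone, with no gene of s and d of at least 1 at the next number on either side, and 30, or 33.0%, were in runs of 2 to 4 such genes. Of the 954 other gene_ rows with s and d of at least 1 outside runs of 5 or more, 435, or 45.6%, were in such runs. The 30 genes lay in 26 runs: 14 of 2 genes, 9 of 3 and 3 of 4. These runs held 37 further genes, of which 35 were under 100 FPKM in both knockouts. The rule largely sets this count, since most raised genes at or above that level in both knockouts were taken into the 91. Of all 1184 gene_ rows with s and d of at least 1, 1072 were under 100 FPKM in both knockouts. The medians of the 37 genes were 21.3 FPKM in the Swd3 knockout, 20.3 FPKM in the Set1 knockout and 4.95 FPKM in WT.

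Only 4 runs held more than 1 of the 91 genes. Gene_7976 and gene_7977 were close in level: gene_7976 averaged 302 ± 19.5 FPKM in the Swd3 knockout, 273 ± 6.37 FPKM in the Set1 knockout and 85.1 ± 5.08 FPKM in WT, and gene_7977 averaged 252 ± 8.06 FPKM in the Swd3 knockout, 239.7 ± 4.71 FPKM in the Set1 knockout and 80.0 ± 2.98 FPKM in WT (SD, n = 3). In both the Swd3 knockout lay just above the Set1 knockout without overlap. Gene_7698 averaged 358 ± 2 FPKM in the Swd3 knockout, 303 ± 1.95 FPKM in the Set1 knockout and 126 ± 5.38 FPKM in WT, and gene_7699 averaged 209 ± 12.4 FPKM in the Swd3 knockout, 159.7 ± 8.95 FPKM in the Set1 knockout and 50.6 ± 2.33 FPKM in WT (SD, n = 3 each). Again both were higher in the Swd3 than in the Set1 knockout. Gene_2124 and gene_2125 differed in this respect: gene_2124 averaged 275 ± 36.5 FPKM in the Swd3 knockout, 291 ± 19 FPKM in the Set1 knockout and 133 ± 6.12 FPKM in WT, with overlapping knockouts, and gene_2125 averaged 172 ± 5.93 FPKM in the Swd3 knockout, 142 ± 1.77 FPKM in the Set1 knockout and 65.1 ± 1.97 FPKM in WT (SD, n = 3 each), with the Swd3 knockout above. The run of gene_5468 to gene_5471 held gene_5468 and gene_5470, at means of 457 and 197 FPKM in the Swd3 knockout, 527 and 201 FPKM in the Set1 knockout and 193 and 52.4 FPKM in WT.

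The strongest changes also had raised neighbours in some cases. Next to gene_2775, gene_2774 stood at 60.1 FPKM in the Swd3 knockout and 43.6 FPKM in the Set1 knockout, against 1.08 FPKM in WT. Next to gene_6017, gene_6018 stood at 75.2 FPKM in the Swd3 knockout and 77.6 FPKM in the Set1 knockout, against 17.6 FPKM in WT. Beside gene_1082, gene_1081 reached only 15.4 FPKM in the Swd3 knockout and 13.2 FPKM in the Set1 knockout, against 5.94 FPKM in WT. Gene_3030 and gene_6526 stood alone. Gene_9255 was next to the most abundant of all neighbours in these runs, gene_9254, at 7284 FPKM in the Swd3 knockout and 7117 FPKM in the Set1 knockout, against 3234 FPKM in WT. The use of strand in counting is not given in the sources used here, so where neighbouring genes overlap their fragments cannot be told apart.

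Of 149 other gene_ rows numbered directly before or after one of the 91 genes, 144 were tested, and 31 of them, or 21.5%, were at least 2-fold higher in both knockouts (limma, adjusted p under 0.05). Over all gene_ rows tested the share was 13.8%, and over those outside runs of 5 or more 12.4%. Within 2 numbers it was 16.7% of 281 rows. A rise of any size in both knockouts was called for 73 of the 144, or 50.7%, against 33.4% of all gene_ rows tested. By distance, the median of the mean of d and s was 0.34 at the number before and 0.20 at the number after. At 2 numbers before and after this median was 0.18 and 0.10. It was -0.11 at 5 numbers before and 0.01 at 5 numbers after, beside -0.07 over all 8918 gene_ rows. The quartiles overlapped widely, at -0.24 and 0.97 at the number before and -0.54 and 0.59 at 5 numbers before. The share with s and d of at least 1, counted over rows tested or not and without the fit, did not fall steadily with distance. It was 23.3% at the number before and 20.8% at the number after. At 2 numbers before and after it was 13.0% and 11.7%, and at 5 numbers 19.5% and 11.4%. Over all gene_ rows outside runs of 5 or more this share was 11.9%. The rule on runs limits how many neighbours can be raised, and these shares were given no test. Raised neighbours were not particular to the 91 genes. Of the other gene_ rows with s and d of at least 1 outside runs of 5 or more, 45.6% were in runs of 2 to 4. Among the 91 genes this share was 33.0%.

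**Figure D5:**
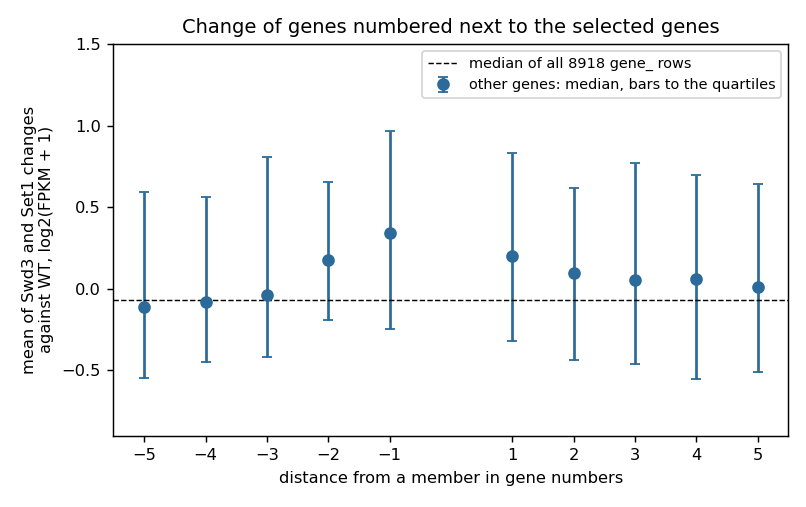
The x axis gives the distance from one of the 91 genes in gene numbers, and the y axis the mean of the Swd3 and Set1 knockout changes against WT on the log2(FPKM + 1) scale. Points are medians of 69 to 80 other genes with bars to the quartiles, and the dashed line is the median of all 8918 gene_ rows. The medians are highest at the numbers directly before and after, at 0.34 and 0.20.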

How the data were processed

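RNA-seq libraries of mycelium of 3 strains (3 libraries each) were grouped by their titles. FPKM values, deposited by the authors with a column per library, were read as they stand. The submitters' processing notes name FastQC, HISAT2 and StringTie. Versions, settings, annotation, genome build and strandedness were not given in the sources used here. Of the 9869 rows, 0 matched the 9270 entries of the reference gene list. The table has no counts, so depth is unknown and no counting interval was computed; the summed FPKM was 705678 to 729434 per library.

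The 91 genes and the comparisons were chosen with earlier results of these data known. Group means, SDs and the rule were computed with pandas 2.3.3. Rows with at least 1 FPKM in at least 3 libraries (9153) were fitted with limma 3.58.1 in R 4.3.3 on log2(FPKM + 1), with one mean per group over all 9 libraries, an intensity trend and Benjamini-Hochberg adjustment over all rows tested at a threshold of 0.05. The fit was tested on simulated data. The pseudocount of 1 understates changes of low genes. Alternatives covered pseudocount, filter, scaling, the groups fitted, the replicate block, left-out libraries and the limits of the rule.

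Genes were named by rule: the 8 highest in the knockouts, the 6 largest and 4 smallest changes, the 3 lowest and 3 highest in WT, the 3 largest and 3 smallest d minus s, the 3 with the largest CV, adjacent numbers, and the nearest to each limit. Others are named after their values were seen, among them the rest of the 10 genes in the top 100 of both knockouts, the genes under 20 FPKM in WT and the neighbours.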

Additional observations from a re-analysis of the deposited data

How the results depend on the processing

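The rule gave 91 genes, and between 87 and 93 with any single library left out of its mean; 84 of the 91 were kept in all 9 of these settings. It gave 89 genes with a common total, 100 with scaling by the median of ratios (the 91 and 9 more), 109 with quantile normalization (90 of the 91) and 89 with group medians. Counting runs over listed rows with missing numbers skipped, a choice added after seeing the data, also gave 89. The limit on level moved the number by construction: 155 genes at 50 FPKM or more and 49 at 200 FPKM or more. The limit on runs did so too: 76 genes with runs of 3 or more left out, which lost 15 of the 91, and 95 with no run left out. Genes changed between the Swd3 and Set1 knockouts numbered 1173, and 733 to 1179 with 1 library left out, with the low end at Swd3 replicate 2 and with 758 without Set1 replicate 3; the cause was not tested. With the replicate block the counts of changed genes were 7518 for Swd3 against WT, 7521 for Set1 against WT and 1369 between knockouts, against 7388, 7422 and 1173 without it. The labels name no batch and link same-numbered libraries by nothing but the number, so the numbers were not taken as pairs. The correlation of the deviations of same-numbered libraries ranged from -0.13 to 0.30, with 4 of 9 pairs over 0.1. No correlation between libraries of unlike number is given beside these, so they cannot decide on pairing. The share of raised direct neighbours was 21.5%; it was 50.7% when a rise of any size counted, which follows from the wider call, and 14.6% under quantile normalization, where the share of all gene_ rows tested was 10.5%. Quantile normalization moved the share of the 91 genes in the summed FPKM to 5.39% in the Set1 knockout and 1.47% in WT, against 5.51% and 1.53%; the cause of the quantile shifts was not tested. Without read counts, the precision of genes low in WT, such as gene_6526, cannot be given beyond the spread of 3 libraries.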
